A study of Mus musculus with 5 samples.

Results

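Killer lectin receptors and surface proteins of memory and effector cells were followed in RNA from sorted mouse CD8 T cells. The genes were taken by name from the first sheet of the deposited table of normalized counts: Klrd1, Klrk1, Klrc1, Klrc2, Klre1, Klrg1, Ly6c2, Cd44 and Slamf6. Of these 9 genes, 7 were found among 11564 rows, and 4 of the 7 are killer lectin receptors. Klrc2 and Klrg1 were not analysed here. All 7 passed the filter on low values.

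The design set 3 libraries of the genotype PHD2-deltaT, described as a PHD2 knockout, beside 2 wild-type (WT) libraries. The labels give no strain, age, stimulation or Cre line, and nothing on whether each library had its own animal. The p-values below therefore reflect the scatter of these samples alone, which could be technical. PHD2 is the oxygen-sensing enzyme through which HIF transcription factors are marked for destruction. Replicates are numbered in accession order.

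Killer lectin receptors are C-type lectin-like proteins best known from natural killer cells, and CD8 T cells gain several of them after activation. Klrd1 encodes CD94, which pairs with NKG2 chains: with NKG2A (Klrc1) it forms an inhibitory receptor for the non-classical MHC molecule Qa-1, and with NKG2C (Klrc2) an activating one. Klrk1 encodes NKG2D, an activating receptor for stress-induced ligands, and Klre1 a receptor that pairs with KLRI chains. Ly6C and the hyaluronan receptor CD44 are used to mark memory and effector CD8 T cells in the mouse. Slamf6 encodes Ly108, a SLAM family receptor also used as a marker of progenitor-like cells.

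The promoters of Klrk1 and Ly6c2, the genes that passed the test, are shown with that of Cd44, which did not pass. Each window runs 5′ to 3′ on the minus strand of GRCm38.p6, from 250 bases before to 50 bases after a RefSeq start site, at chr6:129623815-129624114, chr15:75111922-75112221 and chr2:102901616-102901915. Capitals mark matches, on either strand, to ACGTG or GCGTG (cores of HIF sites), TGTGGT (RUNX), GGTGTGA (a T-box half-site) or an interferon response element.
Klrk1: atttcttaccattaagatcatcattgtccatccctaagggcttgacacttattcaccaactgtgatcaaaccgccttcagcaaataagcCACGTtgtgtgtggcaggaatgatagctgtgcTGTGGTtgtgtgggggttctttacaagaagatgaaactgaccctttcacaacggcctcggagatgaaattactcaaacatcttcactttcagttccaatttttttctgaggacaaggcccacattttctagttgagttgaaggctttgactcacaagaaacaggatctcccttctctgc
Ly6c2: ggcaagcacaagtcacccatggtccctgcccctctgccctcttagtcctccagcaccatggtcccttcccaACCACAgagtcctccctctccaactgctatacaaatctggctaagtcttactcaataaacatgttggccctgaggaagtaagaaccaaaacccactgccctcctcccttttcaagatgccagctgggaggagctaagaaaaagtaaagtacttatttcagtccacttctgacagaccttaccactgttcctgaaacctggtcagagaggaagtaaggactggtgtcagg
Cd44: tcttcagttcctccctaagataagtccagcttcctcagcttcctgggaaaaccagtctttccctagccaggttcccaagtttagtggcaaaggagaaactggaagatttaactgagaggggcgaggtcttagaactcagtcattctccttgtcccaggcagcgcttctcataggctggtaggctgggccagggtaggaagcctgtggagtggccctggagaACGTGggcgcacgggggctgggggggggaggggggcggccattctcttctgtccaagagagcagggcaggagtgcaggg
The Klrk1 window held 1 ACGTG match, read on the shown strand as CACGT, and 1 TGTGGT match. The Ly6c2 window held 1 TGTGGT match, read as ACCACA, and the Cd44 window 1 ACGTG match. No other motif searched was found in these 3 windows. Among genes that did not pass, TGTGGT also matched in the Klrc1 window and at start site 1 of Klre1. It had no match at start site 2 of Klre1 or in the Slamf6 window. Among 32851 RefSeq windows of the same length, 19.6% held ACGTG, 32.4% GCGTG, 16.8% TGTGGT, 3.98% GGTGTGA and 3.44% the interferon response element. None of these motifs contains another. RefSeq windows were found for 7 of the 9 genes, and not for Klrd1 and Klrg1.

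Normalized counts summed to between 19593220 and 20253007 per library, with 10820543 to 15384589 reads inferred to lie behind them. Egln1, the gene of PHD2, was higher in the libraries labelled PHD2-deltaT, at 5447, 4327 and 4993 against 1927 and 2182 (log2 fold change 1.26, limma adjusted p = 2.86e-07). The gene total was thus higher, not lower, under the label of a knockout. Reads outside a deleted stretch would still count, so this total cannot check the deletion. Whether the labels are right was not tested, and every direction given here is by label. All 12 listed CD8 T cell markers were detected, among them Cd8a at 16933, 17936 and 15829 against 17489 and 16444. Of the 12, 3 rose and none fell: Thy1 (log2 fold change 0.57, limma adjusted p = 0.000105), Cd2 (0.39, adjusted p = 0.00524) and Cd247 (0.29, adjusted p = 0.0336). Limma without the variance trend called none of the 3 (adjusted p = 0.0606, 0.174 and 0.251). Cd247 was also not called without PHD2-deltaT replicate 1 (adjusted p = 0.0820) or 3 (adjusted p = 0.0814). Without WT replicate 2, which left 1 WT library, Cd247 (log2 fold change 0.22) and Cd2 (0.35) did not pass. Other genes share 60.3% of the exon bases of Cd247. The limma fit called 461 of 11534 genes at an adjusted p of 0.05, or 4.0% (2.97% higher and 1.02% lower), and the median log2 fold change was -0.01.

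Of the 7 genes, 2 rose in the libraries labelled PHD2-deltaT, Ly6c2 and Klrk1, and none fell, beside 4.0% of all genes called. Their median log2 fold change was 0.08, with a range from -0.27 to 0.52. The groups did not overlap for 4 of the 7, higher for 3 and lower for 1, where 30.5% of all genes were so separated (16.0% higher and 14.5% lower). Fold changes are limma estimates on the log2(value + 1) scale, and adjusted p-values cover all genes tested. In bulk RNA, more cells carrying a transcript and more transcript per cell cannot be told apart.

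**Figure D1:**
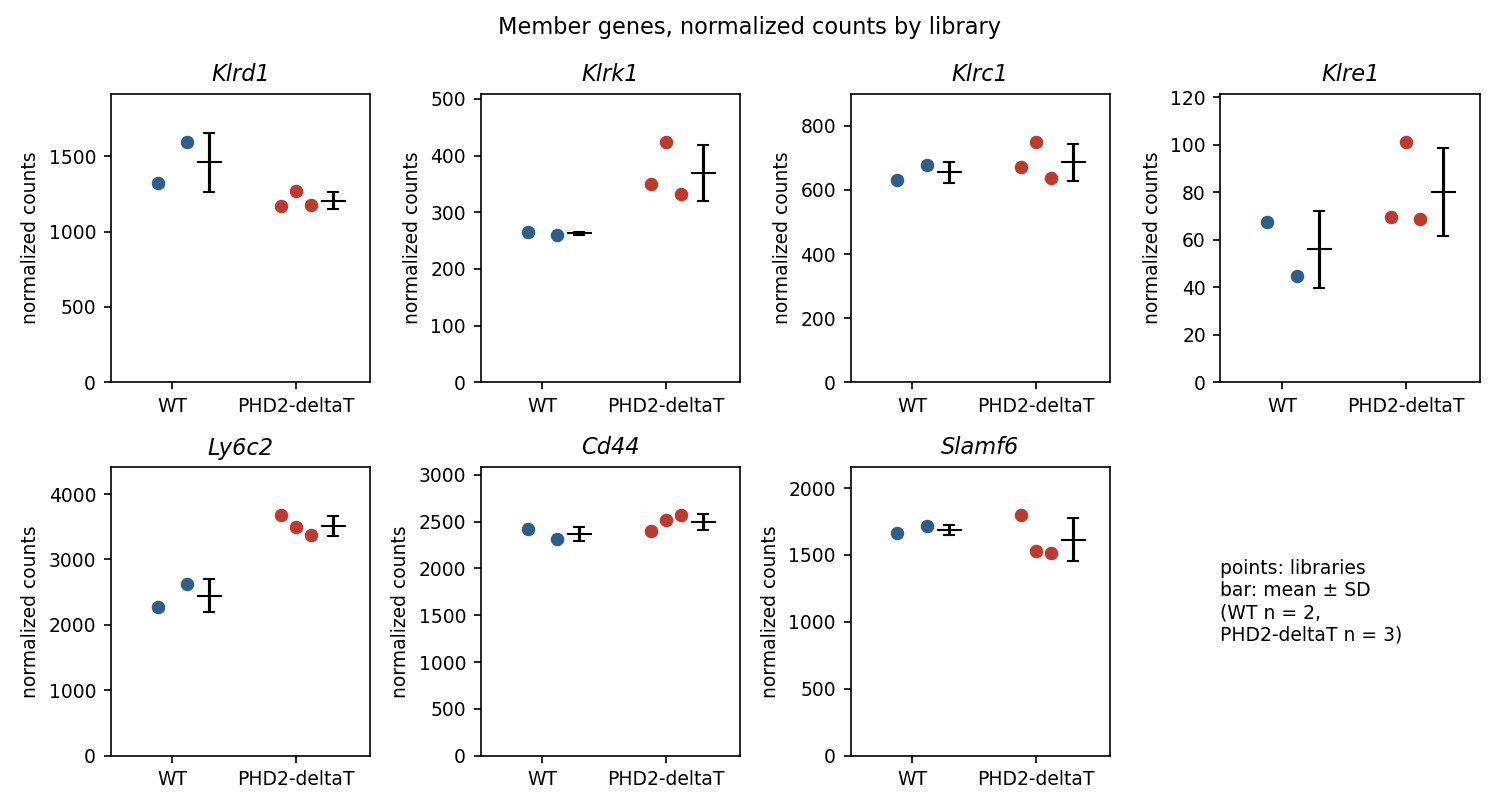
Normalized counts (vertical axes, from 0) of the 7 genes in each WT (blue, n = 2) and PHD2-deltaT (red, n = 3) library, with mean ± SD beside the points. Ly6c2, Klrk1 and Klre1 lie higher and Klrd1 lower in every PHD2-deltaT library than in either WT library, narrowly so for Klre1, and Klrc1, Cd44 and Slamf6 overlap.

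Klrk1, the activating receptor NKG2D (chromosome 6, 129610323 to 129623864, minus strand on mm10), was measured at 349, 425 and 333 in the PHD2-deltaT libraries, against 265 and 261 in WT. All PHD2-deltaT libraries lay above both WT libraries, and replicate 2 was the highest. They averaged 369 ± 49.1 (SD, n = 3) against 263 ± 2.96 (SD, n = 2). The log2 fold change was 0.48 ± 0.13 (SE), or 1.39-fold with a 95% interval of 1.16 to 1.68 (limma, adjusted p = 0.0403). The call lay close to the threshold. It was not made without PHD2-deltaT replicate 2 (0.37, adjusted p = 0.114), WT replicate 1 (0.49, adjusted p = 0.152) or WT replicate 2 (0.47, adjusted p = 0.225), under quantile normalization (adjusted p = 0.0667) or without the variance trend (adjusted p = 0.212). The authors' deposited table, whose sign is WT over PHD2-deltaT, has 0.36 for Klrk1 once the sign is turned, with an FDR of 0.0463.

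NKG2D signals in T cells through DAP10, the product of Hcst. Hcst was at 919, 965 and 986 in the PHD2-deltaT libraries, against 869 and 809 in WT. Every PHD2-deltaT library lay above both WT libraries, and the log2 fold change of 0.19 did not pass (limma, adjusted p = 0.295). Per kilobase of exon, Hcst exceeded Klrk1 by a factor of 26.2, 22.6 and 29.5 in the PHD2-deltaT libraries, and 32.6 and 30.9 in those of WT. The ratio was thus lower in each PHD2-deltaT library. Its size owes much to the divisor, 722 annotated exon bases for Hcst and 7183 for Klrk1, and undivided counts differed far less.

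Klrd1, the CD94 chain (chromosome 6, 129591782 to 129598775, plus strand), had values in the other direction. Its normalized counts were 1169, 1269.8 and 1179 in the PHD2-deltaT libraries, against 1321 and 1598 in WT. Every PHD2-deltaT library lay below both WT libraries, replicate 2 by a small margin, and WT replicate 2 was the highest. They averaged 1206 ± 55.6 (SD, n = 3) against 1459 ± 196 (SD, n = 2). Its log2 fold change was -0.27 ± 0.09 (SE; 95% interval -0.46 to -0.08) and did not pass (limma, adjusted p = 0.123). Without WT replicate 2 it was -0.13 (adjusted p = 0.833), and without WT replicate 1 it was -0.41 and passed (adjusted p = 0.0484). With its sign turned to PHD2-deltaT over WT, the value for Klrd1 in the authors' deposited table is -0.24, with an FDR of 0.136.

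Klrc1, the inhibitory NKG2A chain that pairs with CD94 (chromosome 6, 129666015 to 129678973, minus strand), was at 672, 751 and 636 in the PHD2-deltaT libraries, against 632 and 678 in WT. The groups overlapped, with PHD2-deltaT replicate 2 the highest of all. The log2 fold change was 0.06 ± 0.10 (SE; 95% interval -0.14 to 0.27; limma, adjusted p = 0.850), and without PHD2-deltaT replicate 2 it was -0.0021. Klrc1 and Klrc2 transcripts matched at 89.6% over 1561 aligned bases, with an identical run of 202 bases, so the split of reads between them is uncertain. Per kilobase of exon, Klrd1 exceeded its partner Klrc1 by a factor of 2.695, 2.62 and 2.87 in the PHD2-deltaT libraries, and 3.24 and 3.65 in those of WT. The excess was smaller in each PHD2-deltaT library. The ligand of the pair, Qa-1, is encoded by H2-T23, which was at 10703, 10794 and 11549 in the PHD2-deltaT libraries, against 9519 and 9002 in WT. These groups did not overlap, and the log2 fold change was 0.25 ± 0.07 (SE; limma, adjusted p = 0.0631), past the threshold under quantile normalization alone of the settings tried (adjusted p = 0.0235).

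Klre1 (chromosome 6, 129577905 to 129585827, plus strand) was the lowest of the 7 genes. Its normalized counts were 69.6, 101 and 68.9 in the PHD2-deltaT libraries, against 67.4 and 44.6 in WT. PHD2-deltaT replicate 2 stood above the rest, and replicates 1 and 3 were just above WT replicate 1. The log2 fold change was 0.51 ± 0.25 (SE; 95% interval -0.01 to 1.03; limma, adjusted p = 0.345), from 0.22 without WT replicate 2 to 0.80 without WT replicate 1. Between 33.1 and 74.2 inferred reads per library stood behind these values. The authors' deposited table has a smaller value for Klre1, 0.21 once the sign is turned, with an FDR of 0.597. Klri2, which encodes a partner chain of KLRE1, was at 93.1, 100.3 and 112 against 127 and 152, lower in each PHD2-deltaT library (log2 fold change -0.45, adjusted p = 0.199). Neither gene passed, and the ratio of Klre1 to Klri2 per kilobase was 0.837, 1.13 and 0.690 in the PHD2-deltaT libraries, and 0.596 and 0.329 in those of WT.

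Of 24 further lectin receptor genes listed, 8 were tested, 1 rose and none fell, beside 4.0% of all genes called. Their median log2 fold change was 0.16. Klra1 (Ly49A), an inhibitory receptor for MHC class I, was at 28.4, 90.2 and 29.96 in the PHD2-deltaT libraries, against 10.1 and 12.9 in WT. Replicate 2 stood far above the other PHD2-deltaT libraries. Its log2 fold change was 1.82 ± 0.44 (SE; limma, adjusted p = 0.0263), on 5.4 to 66.1 inferred reads per library. The call was lost without PHD2-deltaT replicate 2 (1.28, adjusted p = 0.112), WT replicate 1 (1.65, adjusted p = 0.126) or WT replicate 2 (1.98, adjusted p = 0.0666), and by limma fitted with no trend (adjusted p = 0.255). Klra7 (Ly49G), at 60.8, 121 and 46.9 against 41.3 and 44.6, and Klrb1c (NK1.1), at 12.7, 21.3 and 11.0 against 4.03 and 5.94, did not pass (adjusted p = 0.302 and 0.189). Ly49 genes are close copies of one another, so their counts are uncertain, and 13.9% of Klrb1c exon bases lie in another gene too.

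PHD2-deltaT replicate 2 stood apart in this family, a count made after the values were seen. Of 10 killer lectin receptor genes tested, it was the highest PHD2-deltaT library in 8, where 34.2% of all genes had their highest PHD2-deltaT value there. Clec2d and Clec2i, tested among the further lectin receptor genes, were left out of these 10. In both, replicate 2 was the lowest PHD2-deltaT library. Of 12 natural killer markers listed, 6 were in the table and summed to 426, 521 and 373 against 321 and 347. Without Kit, the other 5 (Klra1, Klra3, Klra7, Klrb1c and Fcgr3) summed to 166, 302 and 145 against 116 and 128, and 4 of these are lectin receptors themselves. Ncr1, Fcer1g, Tyrobp, Klra4, Klra8 and Klra9 were not analysed here. The part of natural killer cells in the values of Klrk1, Klre1 and Klra1 was not tested. Without replicate 2 the log2 fold change of Klre1 was 0.33.

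**Figure D2:**
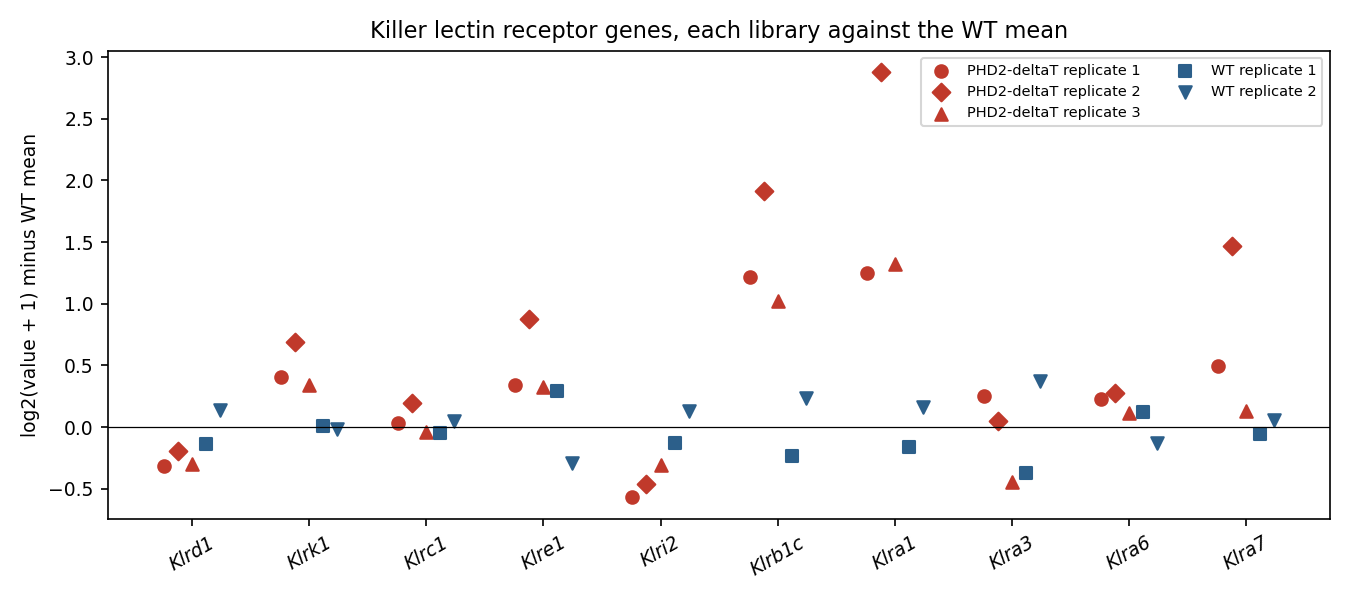
Log2(value + 1) of 10 killer lectin receptor genes in each library, minus the mean of the WT libraries (vertical axis). PHD2-deltaT replicate 2 lies highest of the PHD2-deltaT points in 8 of the 10 genes, with wide gaps for Klra1 and Klra7.

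The 4 killer lectin receptors lie in the natural killer gene complex of chromosome 6. Klre1 is 5.95 kb from Klrd1, Klrk1 11.5 kb and Klrc1 67.2 kb. Klrk1 and Klrd1 are thus close neighbours whose values differed in opposite directions, with only Klrk1 past the test. The ratio of Klrk1 to Klrd1 per kilobase was 0.0533, 0.0596 and 0.0503 in the PHD2-deltaT libraries, and 0.0357 and 0.0291 in those of WT. Within 1 Mb of Klrd1, 19 genes were tested, of which Klrk1 and Klra1 rose and none fell, beside 4.0% of all genes called. Of the 19, 12 had a positive log2 fold change, where the median over all genes was -0.01.

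**Figure D3:**
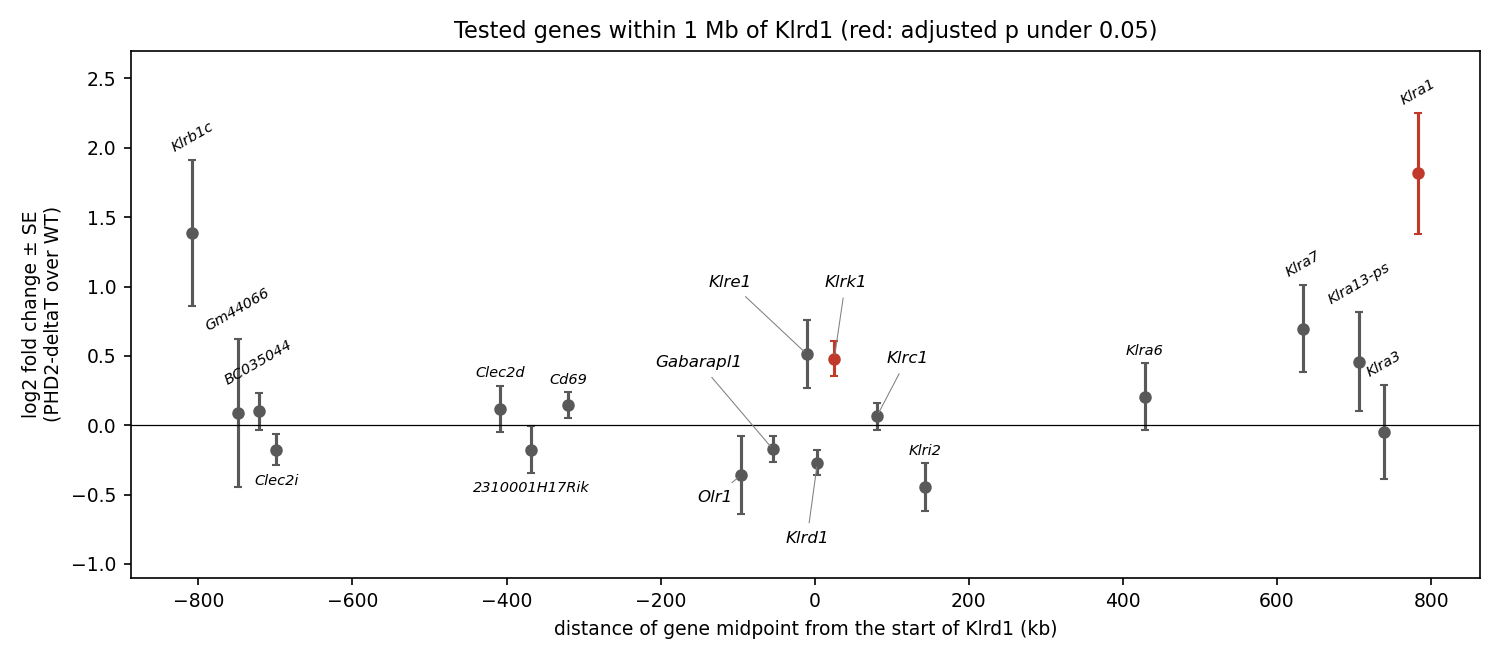
Log2 fold change ± SE (vertical axis) of the 19 tested genes within 1 Mb of Klrd1 against distance from its start in kb (horizontal axis). Klrk1 and Klra1 passed an adjusted p of 0.05, and the other 17 lie on both sides of 0.

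Ly6c2, a GPI-anchored surface protein of memory cells (chromosome 15, 75108158 to 75111970, minus strand), was measured at 3679, 3497 and 3368 in the PHD2-deltaT libraries, against 2269 and 2626 in WT. Every PHD2-deltaT library lay above both WT libraries, by more than the range within either group. They averaged 3515 ± 156 (SD, n = 3) against 2448 ± 253 (SD, n = 2). On the log2 scale the fold change was 0.52 ± 0.08 (SE), or 1.44-fold with a 95% interval of 1.28 to 1.61 (limma, adjusted p = 0.000587). It passed with each library left out, at adjusted p from 0.000568 to 0.0222, and not without the variance trend (adjusted p = 0.111). With the sign turned likewise, the authors' deposited table has 0.47 for Ly6c2, with an FDR of 4.16e-07.

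Of 14 other Ly6 family genes listed, 6 were tested, 2 rose and none fell, beside 4.0% of all genes called. Their median log2 fold change was 0.46. Ly6a, which encodes Sca-1, was at 8665, 8931 and 7411 against 5219 and 5237 (log2 fold change 0.67, limma adjusted p = 7.59e-05). Ly6c1, the near copy of Ly6c2, was at 87.3, 77.0 and 72.9 against 21.1 and 27.7 (log2 fold change 1.66 ± 0.24, SE; adjusted p = 0.0005). Both were higher in all PHD2-deltaT libraries. Transcripts of Ly6c2 and Ly6c1 matched at 97.6% over 822 bases, with an identical run of 188 bases, and the genes lie 59.3 kb apart. How reads were split between the copies is therefore uncertain. Ly6e (log2 fold change 0.25, adjusted p = 0.0710) and Ly6i (0.75, adjusted p = 0.521) did not pass. Under quantile normalization Ly6e passed (0.26, limma adjusted p = 0.0170).

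Cd44, the hyaluronan receptor raised on activated and memory cells (chromosome 2, 102811141 to 102901665, minus strand), was at 2402, 2516 and 2570.3 in the PHD2-deltaT libraries, against 2421 and 2312 in WT. PHD2-deltaT replicate 1 lay below WT replicate 1, so the groups overlapped. Cd44 had a log2 fold change of 0.08 ± 0.07 (SE; 95% interval -0.08 to 0.23; limma, adjusted p = 0.721), whose upper bound is a 1.17-fold increase. A count per gene sums the splice forms of Cd44.

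Of 14 CD44 partner genes listed, 9 were tested, 1 rose and none fell (median -0.06), beside 4.0% of all genes called. Cd74, the invariant chain, which can form a complex with CD44, was at 526, 530.0 and 480.3 against 353 and 319 (log2 fold change 0.61, limma adjusted p = 0.00217). Cd74 is also abundant in B cells and dendritic cells. The 3 of 9 B cell markers in the table summed to 5698, 5179 and 5950.4 against 6192 and 5711, mostly Ighm. None of the 3 was called, with log2 fold changes from -0.10 (Ighm) to 0.34 (Cd79b). Of the 3, 2 lay higher without overlap, where 16.0% of all genes did. The 4 of 14 myeloid and dendritic markers summed to 291, 310.1 and 329 against 214 and 196. Zbtb46 and Itgax were called higher, and Cd68 (log2 fold change -0.34) and Xcr1 were not called. Ms4a1, Cd79a, Lyz2 and Csf1r were not analysed here, and the part of such cells in Cd74 was not tested. Ezr, a linker of CD44 to actin (log2 fold change 0.20, adjusted p = 0.177), its relative Msn (-0.13, adjusted p = 0.473) and Spn, which encodes CD43 (-0.20, adjusted p = 0.156), did not pass.

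Slamf6 (chromosome 1, 171917515 to 171953170, plus strand) was at 1798, 1526 and 1515 in the PHD2-deltaT libraries, against 1663 and 1713 in WT. PHD2-deltaT replicate 1 lay above both WT libraries and replicates 2 and 3 below them. The log2 fold change was -0.07 ± 0.09 (SE; 95% interval -0.25 to 0.11; limma, adjusted p = 0.800). Its adaptor SAP is encoded by Sh2d1a, which was at 501, 487 and 525 against 419 and 356 (log2 fold change 0.39, adjusted p = 0.0554), just short of the threshold. An antisense gene shares 26.6% of the exon bases of Sh2d1a.

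Of 9 other SLAM family genes listed, 5 were tested, 1 rose and none fell (median 0.00), beside 4.0% of all genes called. Slamf7, a receptor of cytotoxic lymphocytes, was at 2559, 2235 and 2209 against 1553 and 1619, without overlap (log2 fold change 0.55 ± 0.08, SE; limma, adjusted p = 0.000448). Slamf1 (-0.20, adjusted p = 0.191), Ly9 (0.19, adjusted p = 0.204) and Cd84 (-0.08, adjusted p = 0.755) did not pass.

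**Figure D4:**
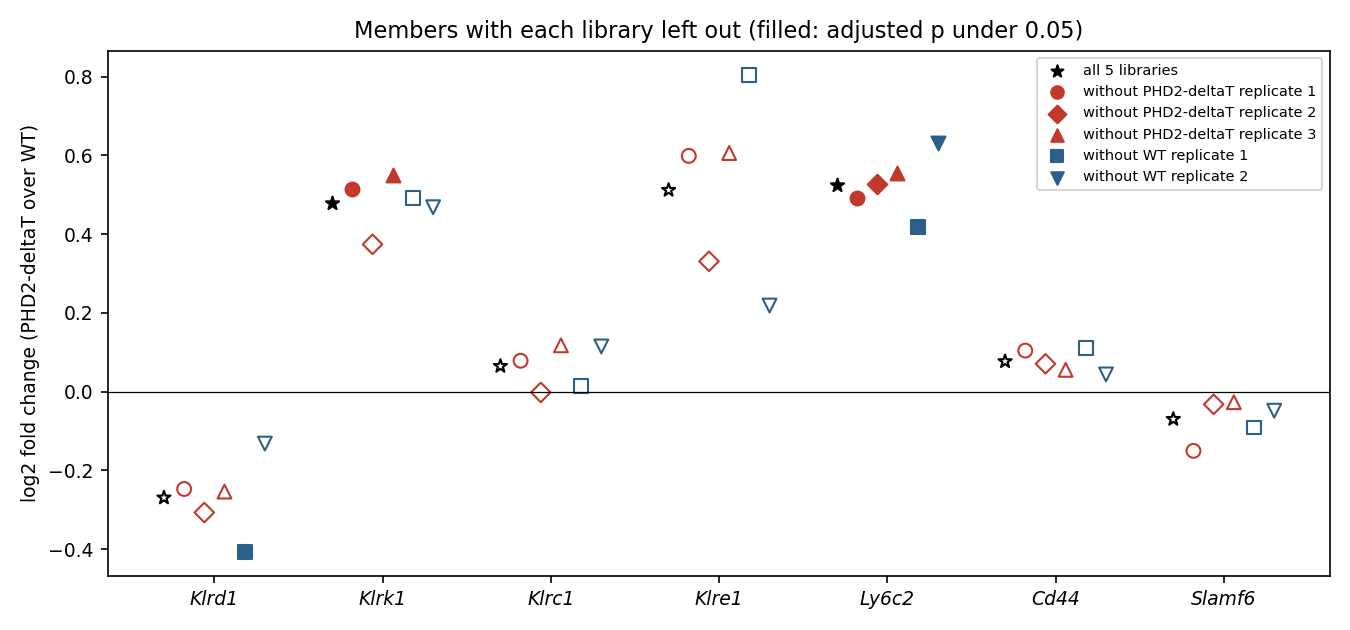
Log2 fold changes (PHD2-deltaT over WT, vertical axis) of the 7 genes with all 5 libraries and with each library left out, filled where the adjusted p was under 0.05. Ly6c2 is filled throughout, Klrk1 in 3 of 6 fits, and Klrd1 only without WT replicate 1.

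Of 15 adaptor and relay genes listed, 12 were tested and limma called 0 (median 0.02), with 3 at an unadjusted p under 0.05, which 15.0% of all genes reached: Sh2d1a, Hcst and Pik3r1. Sh2d1a alone passed under robust eBayes (adjusted p = 0.0462) and with array weights (adjusted p = 0.0452). Pik3r1, a phosphoinositide 3-kinase subunit (log2 fold change -0.20, adjusted p = 0.238), and the lipid phosphatase gene Inpp5d (0.16, adjusted p = 0.342) did not pass.

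Of 14 ligand genes listed, 4 were tested and limma called 0 (median -0.04), with 1, H2-T23, at an unadjusted p under 0.05, beside the same 15.0% of all genes. The NKG2D ligand genes Ulbp1 (87.3, 77.0 and 94.9 against 87.6 and 118; adjusted p = 0.672) and H60b (9.80, 13.2 and 4.99 against 10.1 and 13.9; adjusted p = 0.824) overlapped between groups. H2-D1, a classical class I gene bound by Ly49 receptors, had a log2 fold change of 0.15 (adjusted p = 0.386).

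Of 22 other surface markers of memory and effector cells, 20 were tested, 2 rose and 1 fell, beside 4.0% of all genes called. Their median log2 fold change was 0.15. The interleukin-18 receptor gene Il18r1 was among those that rose (0.48, limma adjusted p = 0.0269). Itgae, which encodes the integrin chain CD103, fell, at 507, 431 and 562 against 739 and 805 (log2 fold change -0.63, adjusted p = 0.00252). Without WT replicate 2 Itgae was not called (-0.57, adjusted p = 0.0533). Il18r1 did not pass in the fit without WT replicate 1 (0.29, adjusted p = 0.345) or PHD2-deltaT replicate 2 (adjusted p = 0.0643). Il18rap, the partner of Il18r1, did not pass (0.32, adjusted p = 0.0876).

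All 15 listed transcription factors of memory and effector fate were tested, of which 4 rose and 1 fell, beside 4.0% of all genes called. Their median log2 fold change was 0.09. Tbx21, which encodes the effector factor T-bet, was at 2761, 2957 and 2484 against 1598 and 1565 (log2 fold change 0.79, limma adjusted p = 1.32e-05), and its relative Eomes at 4802, 4637 and 5471 against 3611 and 3333 (0.51, adjusted p = 0.000858). Nfil3 (1.04, adjusted p = 0.000154) and Prdm1, which encodes Blimp-1 (1.47, adjusted p = 0.0129), also rose. Bach2, a repressor of effector genes, fell (-0.43, adjusted p = 0.00115). In limma without the variance trend Tbx21 was still called. Nfil3 (adjusted p = 0.0688), Eomes (adjusted p = 0.133) and Bach2 (adjusted p = 0.102) were not.

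**Figure D5:**
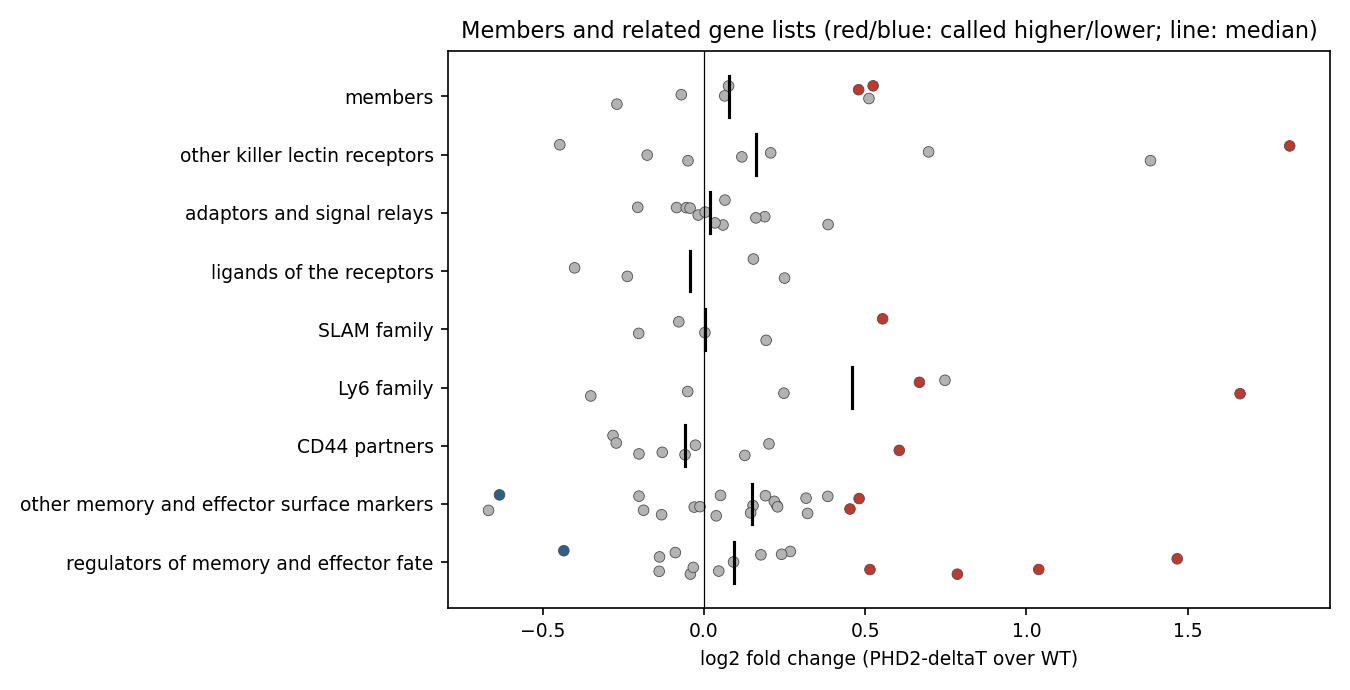
Log2 fold changes (PHD2-deltaT over WT, horizontal axis) of the members and of genes in related lists, with the median of each list as a line. Called genes are red (higher) or blue (lower), and no adaptor or ligand gene is called.

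Levels of different genes were compared as normalized counts per kilobase of annotated exon, retained introns included. On this scale Ly6c2 (mean 1127 over 5 libraries) and Klrd1 (1021) stood at percentiles 90.4 and 89.3 of all genes. On it Ly6c2 exceeded Klrd1 in all 3 PHD2-deltaT libraries, and Klrd1 exceeded Ly6c2 in both WT libraries. This order depends on the divisor, 2740 exon bases for Ly6c2 and 1281 for Klrd1. The longest coding transcript of Ly6c2 had 822 bases, and in undivided counts Ly6c2 exceeded Klrd1 in every library. The size of each ratio per kilobase depends on the divisor likewise. Cd44 (361), Klrc1 (339.6) and Slamf6 (152) followed, and Klrk1 (45.4) and Klre1 (20.1) were lowest. Cd44 and Klrc1 were close, and their order changed between libraries.

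Genes were ranked by likeness to Klrd1 over the 5 libraries, leaving out predicted ones (Gm or Rik names). Those whose log2 values followed it most closely were Nr3c1, Zfp942, AI504432, Josd1 and Ikzf2, with Pearson r from 0.994 to 0.997. An r above 0.95 was reached by 136 genes (1.18%), predicted ones included, so this is a description of few points. Between members r ran from -0.83 (Slamf6 and Cd44) to 0.86 (Klre1 and Klrk1). Klrd1 had an r of -0.63 with Klrk1 and 0.10 with its partner Klrc1.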

How the data were processed

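Sorted CD8 T cell RNA was sequenced in 5 libraries. The submitters' processing notes name HTSeq 0.9.1, STAR 2.5.3, Trimmomatic 0.36 and mm10. The authors deposited a normalized signal per gene, called normalized counts per the file headers, with log2 fold changes and p-values adjusted as FDR. Not given in the sources used here are the scaling method, the tool behind that comparison and the use of strand. Within a library all deposited values were multiples of a step. Assuming reads scaled by a constant (1.30 to 1.85) accounted for 96.0% to 99.6% of low values, against 54.1% to 77.0% by chance, and gave the inferred reads. No count test was run.

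The 11534 genes that reached 10 in 2 or more libraries were fitted as log2(value + 1) by genotype with limma 3.58.1 in R 4.3.3, using a mean-variance trend. Tests were two-sided and adjusted by Benjamini-Hochberg, with calls at 0.05. Residual degrees of freedom were 3, prior ones 12.8. The fit was tested on simulated data. Positions and exons came from GENCODE M21; none of the 7 genes shares exon bases with another gene. Python 3.11.15, pandas 2.3.3 and matplotlib 3.10.9 made the tables and figures.

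Members, lists and tests were chosen with earlier results of these data known. From each list the up to 4 genes with the smallest p were named, plus Hcst, Sh2d1a, H2-T23 and Ezr. The 5 genes most like Klrd1 were taken by r, with predicted genes left out. An item covered by this rule is left unreported. Egln1, Cd8a, Prdm1 and the other marker genes named were chosen after their values were seen. Alternatives were other pseudocounts, filters, scalings, variance models and weights, and each library left out.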

Additional observations from a re-analysis of the deposited data

How the results depend on the processing

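No paired analysis was possible because the labels give no replicate numbers. In limma without the trend, 96 genes were called in place of 461 (76 higher, 20 lower), with 0 members, 0 further lectin receptors, 0 natural killer markers, 0 SLAM, 1 Ly6, 0 CD44 partner and 0 surface marker genes, and 1 regulator. Quantile normalization left 1 member called, as higher, and added 1 ligand and, in the Ly6 family, Ly6e. Robust eBayes and array weights each called 1 adaptor. A minimum of 50 left 0 further lectin receptors and natural killer markers called, since Klra1 was then not tested. The causes of the other shifts were not tested. With a library left out, 244 to 523 genes were called (209 to 362 higher, 35 to 161 lower), the fewest without WT replicate 2. Members called ran from 1 to 2 (higher 1 to 2, lower 0 to 1), further lectin receptors and natural killer markers each from 0 to 1, and surface markers from 1 to 3. With an arm of 1 library, its spread is assumed to equal that of the other group. The log2 fold change of Klrc1 changed sign without PHD2-deltaT replicate 2, with a range from -0.0021 to 0.12. That of Xcr1, a dendritic cell marker at low counts, was -0.04 and ran from -0.57 to 0.22, positive without PHD2-deltaT replicate 1 (0.22) or 2 (0.13). Of 761 log2 fold changes of 55 genes under 14 alternatives, 716 kept their direction and side of the threshold, 36 no longer passed, 6 newly passed and 3 changed sign. Low inferred reads limit Klre1 and the Ly49 genes, and Ly6c1 in the WT libraries (11.4 and 20.6). Prdm1 was low too, at normalized counts of 60.8, 72.0 and 40.9 against 15.1 and 25.8. Its fold change was not followed under the alternatives.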
